A study of Mus musculus with 8 samples.

Results

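The genes described here are 40 mouse genes of the germ line, chosen by name: genes of germ cell identity, of meiotic chromosomes and of the piRNA pathway. All 40 were found by Ensembl identifier among the 55573 genes of the deposited tables. They were put into role groups of 13 germ cell genes, 16 meiotic chromosome genes and 11 piRNA genes. Across these groups, 17 genes are commonly described as silenced by promoter DNA methylation outside germ cells and are called methylation-gated here. Polyadenylated RNA of cultured mouse embryonic stem cells (ESCs) was sequenced in 8 libraries, 2 from each of 4 groups. The 2C::GFP+/SA group held cells of the genotype 2C::GFP+ (a fluorescent reporter for cells that resemble the 2-cell embryo) grown with 2 µM SGC0946, 2 µM AS8351 and 10 ng/ml of IL6 plus soluble IL6 receptor, without LIF. The 2C::GFP+/SGC group held 2C::GFP+ cells grown with 2 µM SGC0946 and 10 ng/ml LIF. Both treated groups were kept in a medium with 20% KnockOut serum replacement. The 2C::GFP+ group held untreated cells with the reporter and the mESC group untreated wild-type ESCs, both with 10 ng/ml LIF. SGC0946 inhibits DOT1L, the methyltransferase of histone H3 lysine 79, and AS8351 inhibits KDM5B, a demethylase of histone H3 lysine 4. The labels do not settle which medium either untreated group was kept in, so that a change of medium cannot be told apart from the treatment in any comparison of a treated with an untreated group. They do not say whether reporter cells were sorted, and nothing says that replicates were separate cultures. The p-values therefore measure the spread between these samples, which may be technical.

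Germ cells are set apart early in the embryo and later enter meiosis, the division in which homologous chromosomes pair along the synaptonemal complex, are held by meiosis-specific cohesin and exchange DNA. The piRNA pathway protects the germ line from transposons: PIWI proteins loaded with small RNAs cut transposon transcripts and direct DNA methylation to transposon promoters, with the help of Tudor-domain proteins and RNA helicases. Many of these genes have CG-rich promoters that are methylated in somatic lineages, and some germline genes are held silent in ESCs by repressor complexes that bind E-box or E2F sites. ESCs express part of this programme at low levels.

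The libraries held between 12299931 and 145810034 counts, with replicate 1 of each group 7.46 to 9.62 times as deep as replicate 2. The columns used for 2C::GFP+ are named after the serum replacement and were given to that group by elimination, so each comparison with 2C::GFP+ rests on that assignment, whereas 2C::GFP+/SA against 2C::GFP+/SGC or mESC does not. Of 6 ESC markers, 5 (Pou5f1, Sox2, Zfp42, Esrrb and Klf4) were lower in 2C::GFP+/SA than in mESC and 4 lower than in 2C::GFP+, and the list summed to 3024 and 3335 TPM in 2C::GFP+/SA, against 4852 and 4329 TPM in 2C::GFP+ and 4536 and 5061 TPM in mESC. Esrrb, a pluripotency regulator, had 340.3 and 387 CPM (normalised read counts, scaled to the size of the library) in 2C::GFP+/SA, against 698 and 717 CPM in 2C::GFP+ and 864 and 825 CPM in mESC. These markers moved beside the genes described here, and their part in the results was not tested. Of 11 spermatid genes, the packaging proteins Prm1, Prm2 and Tnp1 and the sperm tail protein Akap4 had 0 to 0.0729 CPM, and the list summed to 6.39 to 17.01 TPM per library. Not all of the list was near 0: Ldhc ranged from 2.85 to 7.49 CPM and Izumo1 from 0.0594 to 1.11 CPM over the libraries. Only 3 of the 11 were tested, and relative to untreated reporter cells 1 was higher and 0 lower under 2C::GFP+/SA conditions. Markers of the oocyte summed to 18.5 to 57.7 TPM and markers of gonadal somatic cells to 4.12 to 15.2 TPM. Of 4 oocyte markers tested, 2 were higher and 1 lower in 2C::GFP+/SA than in 2C::GFP+. Of 5 gonadal somatic markers tested, 2 were higher and 1 lower. Among all tested genes, 14.9% were higher and 13.8% lower. TPM values are scaled by gene length and are used here to compare levels between genes, and CPM values to compare 1 gene between libraries.

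The 40 genes took 0.110% and 0.118% of all counts in 2C::GFP+/SA cells, 0.0970% and 0.122% in 2C::GFP+/SGC cells, 0.0721% and 0.0852% in 2C::GFP+ cells, and 0.0411% and 0.0453% in mESC. Their share was thus lowest in both mESC libraries and overlapped between the treated groups. In these bulk samples, more cells expressing a gene and more RNA per cell cannot be told apart. The level was concentrated in few genes. Over all 8 libraries, Tex19.1 averaged 177 TPM, Dazl 69.6 TPM and Hsf2bp 60.8 TPM, while Spo11, the nuclease that makes meiotic double-strand breaks, had 2 counts in 2C::GFP+/SA, 2 in 2C::GFP+/SGC, 4 in 2C::GFP+ and 0 in mESC and was the 1 member not tested.

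**Figure D1:**
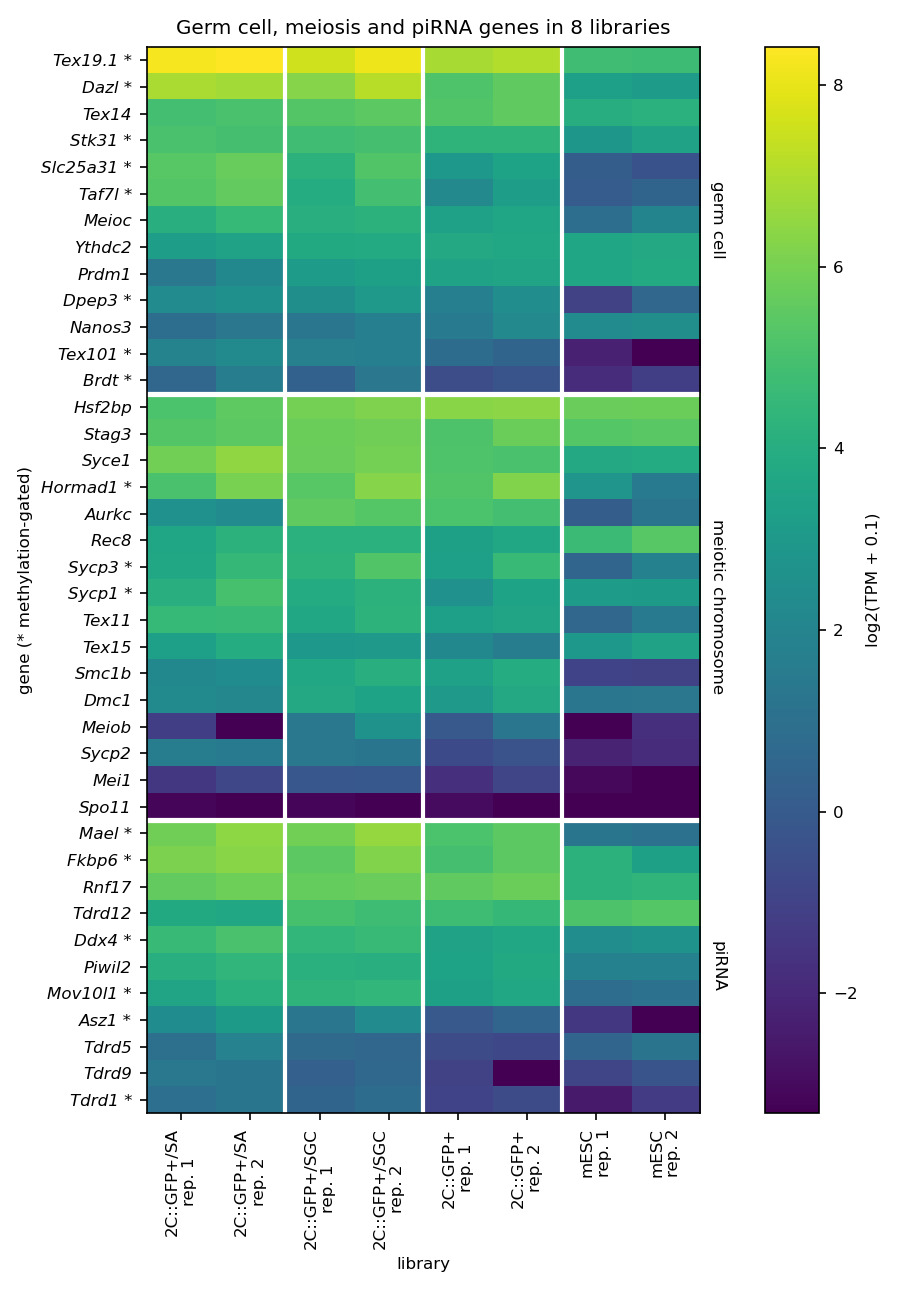
Level of each of the 40 genes (rows, in role groups, ordered by mean level) in each of the 8 libraries (columns), as log2(TPM + 0.1); an asterisk marks methylation-gated genes. Tex19.1 and Dazl are the brightest rows in the treated groups, most methylation-gated rows are darkest in mESC, and Spo11 is dark throughout.

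In summed TPM, the 17 methylation-gated genes carried most of the difference from mESC in all 3 reporter groups. Their summed level was 779 and 943 TPM in 2C::GFP+/SA cells, 561 and 890 TPM in 2C::GFP+/SGC cells, 333 and 452 TPM in 2C::GFP+, and 92.5 and 85.0 TPM in mESC. The treated groups overlapped, and each of their libraries stood above both 2C::GFP+ libraries, which in turn stood above both mESC libraries. Much of this sum in the treated groups came from Tex19.1 and Dazl. Tex19.1 averaged 322 TPM in 2C::GFP+/SA, 234 TPM in 2C::GFP+/SGC and 27.2 TPM in mESC. Dazl averaged 116 TPM, 112 TPM and 9.31 TPM in the same groups. The sum of the other 23 genes was 341 and 423 TPM in 2C::GFP+/SA cells, 468 and 505 TPM in 2C::GFP+/SGC cells, 391 and 443 TPM in 2C::GFP+, and 250 and 294 TPM in mESC, so that 2C::GFP+/SA and 2C::GFP+ overlapped there. The replicates of 2C::GFP+/SGC were far apart for the methylation-gated genes: 16 of 17 had a higher CPM in replicate 2 than in replicate 1, against 8 of 17 in 2C::GFP+/SA, 15 of 17 in 2C::GFP+ and 8 of 17 in mESC.

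**Figure D2:**
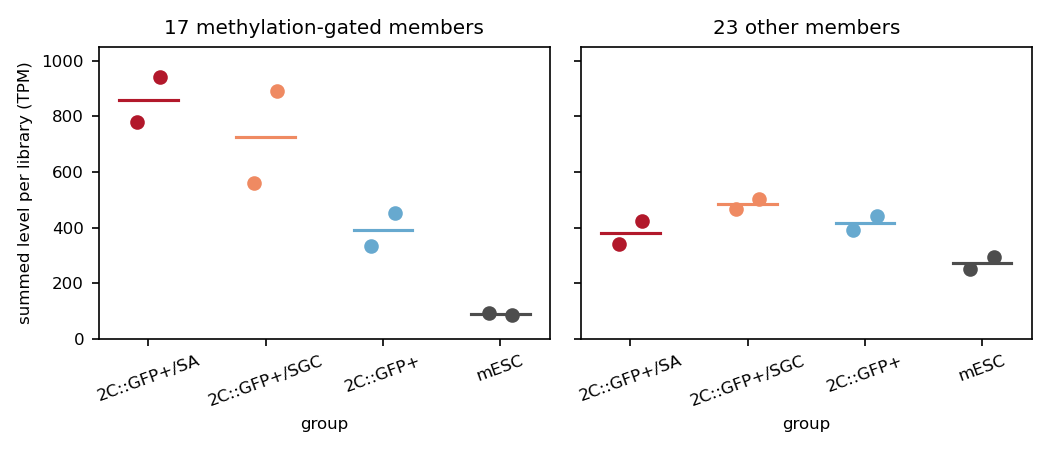
Summed TPM per library of the 17 methylation-gated genes and of the other 23 genes, by group (points are libraries, lines are means of 2). The methylation-gated sum lies between 779 and 943 TPM in 2C::GFP+/SA and between 85.0 and 92.5 TPM in mESC, while the sum of the other genes stays between 250 and 505 TPM.

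Promoters were looked at because most methylation-gated genes were higher in reporter cells than in mESC, 14 of 17 in 2C::GFP+ and 17 of 17 in 2C::GFP+/SA. They did not all move together among the reporter groups. The E-box CACGTG (bound by MAX and its partners, among them MGA) and the E2F site (TCCCGC or its reverse complement GCGGGA) also belong to complexes known to silence germline genes in ESCs. The methylation-gated set was chosen by common description, so its shares below describe that choice. RefSeq promoters of 300 bases (250 before to 50 after the RefSeq gene start, GRCm38.p6) were matched for 33 of the 40 genes. Tex15, Rnf17, Ythdc2, Spo11, Tex11, Piwil2 and Meiob were not matched, and none of these is methylation-gated. For some genes the RefSeq start lay well inside the GENCODE gene. Among them were Mei1, Nanos3 and Prdm1, and the methylation-gated Tex101, so their windows may miss another promoter. CACGTG, which reads the same on both strands, stood in 12 of the 17 methylation-gated promoters (70.6%) and in 2 of the 16 others (12.5%), Stag3 and Tdrd9. Among all 27025 promoters of the same length the share was 7.24%, among 17492 protein-coding ones 7.90%, and among the 9330 protein-coding promoters with at least 12 CG dinucleotides, the lowest number in a methylation-gated promoter, 11.4%. The E2F letters, searched on both strands, stood in 7 of the 17 methylation-gated promoters (41.2%) and in 8 of the 16 others (50%), against 43.0% of the protein-coding promoters with at least 12 CG. The median number of CG dinucleotides was 21 in methylation-gated promoters and 18 in the others, against 13 over protein-coding promoters and 24 over those with at least 12. A match is a description of these letters and not evidence of binding, and no match says only that the letters are not in this window.

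The promoters below run 5′ to 3′ on the strand of the gene, with the searched letters in capitals. The first 6 belong to methylation-gated genes that hold CACGTG, the next 2 are the most abundant methylation-gated genes, which lack it, and the last 2 belong to the meiotic genes Smc1b and Aurkc, which fell under the full treatment.
Mael (chr1:166238695-166238994, minus strand): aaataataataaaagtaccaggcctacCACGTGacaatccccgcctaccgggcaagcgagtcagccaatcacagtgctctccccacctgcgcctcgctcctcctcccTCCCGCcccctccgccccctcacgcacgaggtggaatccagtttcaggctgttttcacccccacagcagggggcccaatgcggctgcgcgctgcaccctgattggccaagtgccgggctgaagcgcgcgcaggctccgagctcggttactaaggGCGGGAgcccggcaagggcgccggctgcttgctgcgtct
Ddx4 (chr13:112652261-112652560, minus strand): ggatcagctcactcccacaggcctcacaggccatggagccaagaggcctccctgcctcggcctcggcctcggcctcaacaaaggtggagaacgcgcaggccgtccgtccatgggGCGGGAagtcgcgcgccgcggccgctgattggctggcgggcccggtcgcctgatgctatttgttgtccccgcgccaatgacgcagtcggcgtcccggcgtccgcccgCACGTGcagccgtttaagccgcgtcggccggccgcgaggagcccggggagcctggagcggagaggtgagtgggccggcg
Fkbp6 (chr5:135349995-135350294, minus strand): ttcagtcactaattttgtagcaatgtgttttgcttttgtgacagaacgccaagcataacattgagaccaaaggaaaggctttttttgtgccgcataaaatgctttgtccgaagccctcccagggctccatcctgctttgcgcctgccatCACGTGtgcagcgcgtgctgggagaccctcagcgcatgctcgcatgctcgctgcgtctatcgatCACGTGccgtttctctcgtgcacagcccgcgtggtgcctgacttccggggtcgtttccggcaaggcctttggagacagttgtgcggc
Slc25a31 (chr3:40708621-40708920, plus strand): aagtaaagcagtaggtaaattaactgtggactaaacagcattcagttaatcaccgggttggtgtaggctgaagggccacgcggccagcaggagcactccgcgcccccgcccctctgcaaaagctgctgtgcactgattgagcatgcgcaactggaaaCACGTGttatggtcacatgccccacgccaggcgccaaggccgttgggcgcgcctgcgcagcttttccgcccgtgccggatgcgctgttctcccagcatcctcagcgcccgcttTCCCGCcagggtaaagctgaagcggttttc
Taf7l (chrX:134476441-134476740, minus strand): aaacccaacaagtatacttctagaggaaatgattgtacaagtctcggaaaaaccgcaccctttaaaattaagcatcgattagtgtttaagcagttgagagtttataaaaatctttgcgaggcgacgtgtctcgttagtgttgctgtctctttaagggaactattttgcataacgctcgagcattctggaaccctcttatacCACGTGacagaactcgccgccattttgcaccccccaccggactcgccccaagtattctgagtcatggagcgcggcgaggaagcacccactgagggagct
Hormad1 (chr3:95559427-95559726, plus strand): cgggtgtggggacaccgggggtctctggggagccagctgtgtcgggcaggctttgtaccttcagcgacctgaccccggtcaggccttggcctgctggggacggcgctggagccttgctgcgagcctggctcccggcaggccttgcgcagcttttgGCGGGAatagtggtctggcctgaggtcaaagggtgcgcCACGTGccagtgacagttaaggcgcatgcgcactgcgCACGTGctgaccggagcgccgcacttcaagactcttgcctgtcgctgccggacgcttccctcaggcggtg
Tex19.1 (chr11:121145893-121146192, plus strand): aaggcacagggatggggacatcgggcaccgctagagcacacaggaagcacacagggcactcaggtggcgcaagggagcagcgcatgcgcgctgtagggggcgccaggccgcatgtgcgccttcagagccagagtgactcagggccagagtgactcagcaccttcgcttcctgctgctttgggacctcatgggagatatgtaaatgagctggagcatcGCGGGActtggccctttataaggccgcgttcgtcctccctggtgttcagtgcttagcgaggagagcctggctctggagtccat
Dazl (chr17:50293571-50293870, minus strand): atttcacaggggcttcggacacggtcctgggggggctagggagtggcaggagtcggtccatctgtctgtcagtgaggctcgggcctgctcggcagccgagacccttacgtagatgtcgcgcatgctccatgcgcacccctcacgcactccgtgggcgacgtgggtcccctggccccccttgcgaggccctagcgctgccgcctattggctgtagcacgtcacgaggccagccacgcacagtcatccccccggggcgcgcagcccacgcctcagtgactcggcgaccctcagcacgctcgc
Smc1b (chr15:85131908-85132207, minus strand): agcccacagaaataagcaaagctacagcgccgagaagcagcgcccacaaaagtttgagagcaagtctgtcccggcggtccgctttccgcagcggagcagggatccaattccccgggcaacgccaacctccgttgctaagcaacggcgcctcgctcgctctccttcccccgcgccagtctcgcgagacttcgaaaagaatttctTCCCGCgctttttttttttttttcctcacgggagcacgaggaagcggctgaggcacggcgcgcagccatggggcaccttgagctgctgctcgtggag
Aurkc (chr7:6995135-6995434, plus strand): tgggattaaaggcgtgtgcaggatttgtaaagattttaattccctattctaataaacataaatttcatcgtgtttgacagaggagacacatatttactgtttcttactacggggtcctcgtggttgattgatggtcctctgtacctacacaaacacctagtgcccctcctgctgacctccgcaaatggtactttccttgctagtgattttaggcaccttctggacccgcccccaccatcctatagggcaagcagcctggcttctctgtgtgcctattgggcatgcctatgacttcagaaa
The Ddx4 promoter held 38 CG dinucleotides, Dazl and Smc1b 28 and 29, and Aurkc 6. Fkbp6 and Hormad1 held the E-box letters at 2 positions each, and so did Sycp3 and Tdrd9.

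**Figure D3:**
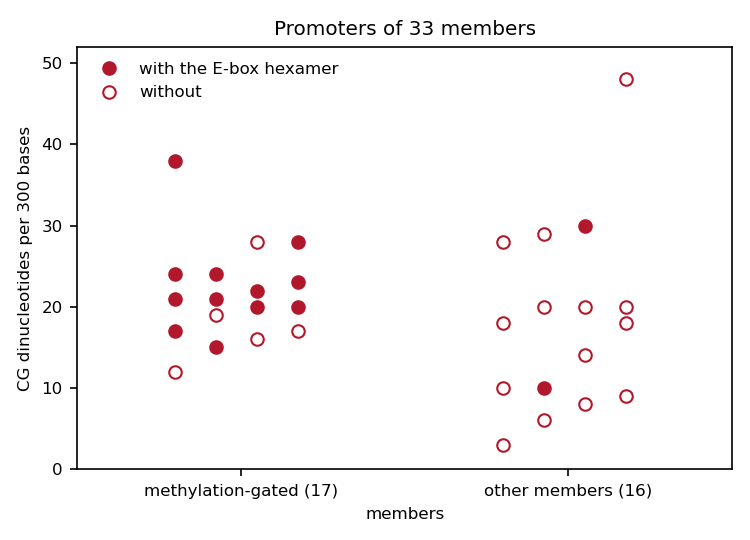
Number of CG dinucleotides (y axis) in the 300-base promoters of 17 methylation-gated genes and 16 other members; filled points hold the E-box letters and open points do not. Most methylation-gated points are filled, whereas 2 of the 16 others are; both sets cover a wide range of CG counts.

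Of the 39 tested genes, 33 differed between 2C::GFP+/SA and mESC, 29 higher and 4 lower (edgeR, adjusted p under 0.05); among all 20608 tested genes, 45.1% differed, 25% higher and 20.1% lower. The median log2 fold change was 2.46, against 0.03 over all tested genes. Every methylation-gated gene was higher in 2C::GFP+/SA, 17 of 17, with a median log2 fold change of 3.20. The 4 lower genes were Prdm1, Rec8, Hsf2bp and Tdrd12, none of them methylation-gated. Over all alternative fits, 16 or 17 of the methylation-gated genes were called: Hormad1 was not called without 2C::GFP+/SA replicate 2 (adjusted p = 0.0545). The call of Hsf2bp ended with DESeq2 (0.123), with RLE scaling (0.0668), with no filter (0.0688), with limma (0.0756 and 0.0735) and with the 4 libraries alone (0.0634). The same happened when replicate 1 of 2C::GFP+/SA or either mESC library was left out, with adjusted p of 0.128, 0.138 and 0.0546.

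In the untreated reporter cells, 27 of the 39 genes were higher and 4 lower than in mESC, where 15.2% of all tested genes were higher and 9.12% lower. The median log2 fold change was 1.82, against 0.04 over all genes. Of the methylation-gated genes, 14 of 17 were higher and none lower, and of the 22 others tested 13 were higher and 4 lower (Rec8, Tex15, Tdrd5 and Tdrd12). Both 2C::GFP+ libraries lay above both mESC libraries for 29 of 39 members, against 33.9% of all tested genes, and below them for 7, against 29%. The 2 groups may differ in medium as well as genotype, and the labels do not tell these apart.

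The full treatment was compared with untreated reporter cells to ask what both compounds and the cytokine change do together, with a possible change of medium included. In 2C::GFP+/SA, 20 of the 39 genes were higher and 6 lower than in 2C::GFP+, against 14.9% and 13.8% of all tested genes. Of the methylation-gated genes 12 of 17 were higher and 0 lower, with a median log2 fold change of 1.41. The 22 others split into 8 higher and 6 lower with a median of 0.04, against 0.01 over all tested genes. The 6 lower genes were Prdm1, Hsf2bp, Smc1b, Dmc1, Aurkc and Tdrd12. Markers of the 2-cell-like state moved in the same libraries: the 7 genes of that list summed to 8779 and 4133 TPM in 2C::GFP+/SA cells, 1853 and 1870 TPM in 2C::GFP+/SGC cells, 672 and 915 TPM in 2C::GFP+, and 3.90 and 10.8 TPM in mESC, and their part in the result was not tested. Of 8 fibroblast markers, 4 were tested and Col1a1, Col1a2 and Thy1 were higher in 2C::GFP+/SA than in 2C::GFP+, while Col3a1, Twist2, Postn and Lum were at or near 0. That list summed to 26.1 and 25.7 TPM in 2C::GFP+/SA against 8.95 and 8.99 TPM in 2C::GFP+, and its part was likewise not tested. Without 2C::GFP+ replicate 1, the deeper library of that group, 15 members in place of 26 were called, and 5 methylation-gated ones in place of 12; without 2C::GFP+ replicate 2, 8 methylation-gated ones were called.

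With SGC0946 alone, no member was called against untreated reporter cells by edgeR, and neither was any of the 20608 tested genes (0%). At an unadjusted p under 0.05 there were 19 of 39 members and 2037 of the 20608 tested genes. DESeq2 called 10 members, all higher (274 genes in all), and limma on log2(TPM + 1) called 0. The log2 fold change was positive for 32 of 39 members, with a median of 0.59 against 0.03 over all genes. Both 2C::GFP+/SGC libraries lay above both 2C::GFP+ libraries for 26 of 39 members, against 24.3% of all tested genes; among methylation-gated genes this held for 14 of 17. They lay below for 2 of 39, against 19.6% of all tested genes. Without 2C::GFP+/SA replicate 2, a library outside the comparison whose loss also changed the filter (24340 genes tested), 7 members were called, and without mESC replicate 2 there was 1.

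Setting 2C::GFP+/SA against 2C::GFP+/SGC asks what AS8351 and the cytokine change add to SGC0946. Here 3 of 39 members were higher (Taf7l, Tex19.1 and Tex15) and 7 lower (Prdm1, Hsf2bp, Smc1b, Dmc1, Meiob, Aurkc and Tdrd12), against 7.92% and 8.18% of all tested genes. The 7 lower genes are outside the methylation-gated set, in which 2 of 17 were higher and 0 lower. Both limma fits called 7 members lower and 0 higher, so none of the 3 higher calls held there. The calls were sensitive to single libraries: 6 members were called without 2C::GFP+/SA replicate 1 and 4 without 2C::GFP+/SGC replicate 1, in place of 10. The 4 called without 2C::GFP+/SGC replicate 1 were Prdm1, Hsf2bp, Smc1b and Aurkc.

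**Figure D4:**
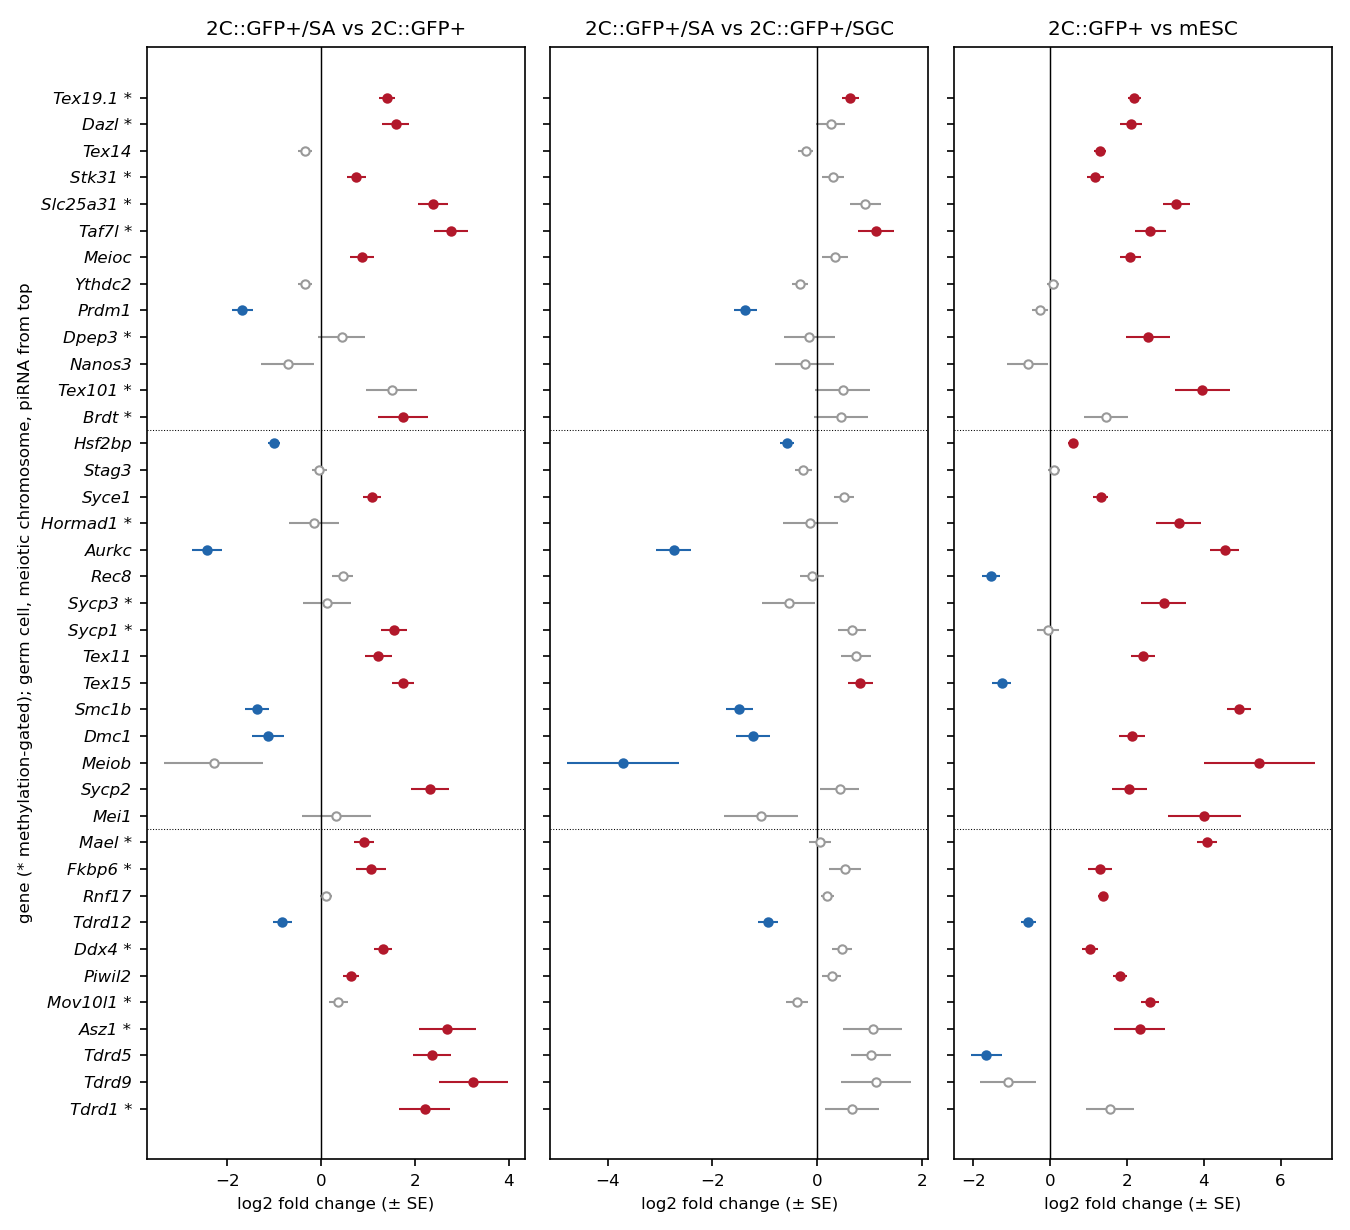
Log2 fold change with its standard error for the 39 tested genes in 3 comparisons (filled red, higher; filled blue, lower; open grey, not called at an adjusted p under 0.05); dotted lines part the role groups. Most called genes are red in 2C::GFP+ against mESC, whereas the blue points of 2C::GFP+/SA against 2C::GFP+/SGC include Smc1b, Dmc1, Aurkc and Hsf2bp, which are red in 2C::GFP+ against mESC.

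Group means were lowest in mESC, next in 2C::GFP+, then in 2C::GFP+/SGC and highest in 2C::GFP+/SA for 17 of the 39 members (43.6%), against 15.9% of all tested genes. The order held for 12 of 17 methylation-gated genes and 5 of 22 others. It held for 8 of 13 germ cell genes and 6 of 11 piRNA genes, but for 3 of 15 meiotic chromosome genes, 7 of which were highest in 2C::GFP+/SGC. This order is a description of means, and neighbouring groups overlapped for many of these genes.

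Among the germ cell genes, 7 of 13 were higher and 1 lower in 2C::GFP+/SA than in 2C::GFP+, against 14.9% and 13.8% of all tested genes. In 2C::GFP+, 9 were higher and 0 lower than in mESC, against 15.2% and 9.12%. The 2C::GFP+/SA calls of Dazl, Meioc, Stk31 and Brdt ended when either 2C::GFP+ library was left out. Those fits also called fewer genes in all. Tex19.1, a mammal-specific gene that restrains transposons in germ cells and placenta, had 197 and 178 CPM in 2C::GFP+/SA cells, 98.7 and 144 CPM in 2C::GFP+/SGC cells, 70.4 and 71.2 CPM in 2C::GFP+ cells and 16.5 and 14.3 CPM in mESC. The groups did not overlap, and each step was in the same direction. Its log2 fold change, given here and below with its standard error, was 1.41 ± 0.17 (adjusted p = 5.88e-05) for 2C::GFP+/SA against 2C::GFP+ and 2.20 ± 0.17 (adjusted p = 1.4e-06) for 2C::GFP+ against mESC. Against 2C::GFP+/SGC it was 0.63 ± 0.16 (adjusted p = 0.0191), a call that ended without 2C::GFP+/SA replicate 1 (adjusted p = 0.0869) or 2C::GFP+/SGC replicate 1 (0.169). The same call ended in both limma fits (adjusted p = 0.111 and 0.123) and with the 4 compared libraries alone in edgeR (0.0669). The near copy Tex19.2 shares 6.31% of the 31-base words of Tex19.1. Tex19.2 had 3.68 and 7.09 CPM in 2C::GFP+/SA cells, 2.86 and 8.02 CPM in 2C::GFP+/SGC cells, 1.15 and 2.38 CPM in 2C::GFP+ cells and 0.219 and 0.719 CPM in mESC.

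Dazl encodes an RNA-binding protein required for germ cells to become competent for meiosis. It had 164 and 117 CPM in 2C::GFP+/SA cells, 84.5 and 152 CPM in 2C::GFP+/SGC cells, 43.4 and 50.5 CPM in 2C::GFP+ cells and 11.6 and 9.91 CPM in mESC. Every library with a compound stood above every untreated one, whereas the treated groups overlapped. Its log2 fold change was 1.59 ± 0.28 (adjusted p = 0.00415) for 2C::GFP+/SA against 2C::GFP+ and 2.11 ± 0.29 (adjusted p = 0.00131) for 2C::GFP+ against mESC. The first call ended without 2C::GFP+ replicate 1 (adjusted p = 0.0622) or replicate 2 (0.0644), and the second without mESC replicate 2 (0.0541). Tex14, needed for the bridges between germ cells, followed another course, with 53.2 and 45.6 CPM in 2C::GFP+/SA cells, 54.9 and 61.0 CPM in 2C::GFP+/SGC cells, 59.0 and 67.2 CPM in 2C::GFP+ cells and 24.96 and 26.2 CPM in mESC. It was higher in 2C::GFP+ than in mESC by a log2 fold change of 1.30 ± 0.15 (adjusted p = 2.85e-05), and its level in 2C::GFP+/SA was not called different from 2C::GFP+.

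The largest rises under the full treatment among germ cell genes were those of Taf7l and Slc25a31. Taf7l, a testis form of a subunit of the general transcription factor TFIID, had 30.3 and 30.2 CPM in 2C::GFP+/SA cells, 9.70 and 18.7 CPM in 2C::GFP+/SGC cells, 3.15 and 6.12 CPM in 2C::GFP+ cells and 0.685 and 0.821 CPM in mESC. Both 2C::GFP+/SA libraries lay above all others. For Taf7l, the log2 fold change was 2.77 ± 0.36 (adjusted p = 0.000223) against 2C::GFP+, and against 2C::GFP+/SGC it was 1.12 ± 0.34 (adjusted p = 0.0445). Both limma fits did not call Taf7l against 2C::GFP+/SGC (adjusted p = 0.11 and 0.149). Neither did edgeR with RLE scaling (0.0554), a stricter filter (0.054) or the 4 compared libraries alone (0.0557). The call against 2C::GFP+/SGC ended without either 2C::GFP+/SA library (adjusted p = 0.128 and 0.058), without 2C::GFP+/SGC replicate 1 (0.279) and without either mESC library (0.0867 and 0.0708). Slc25a31, the ADP/ATP carrier of sperm mitochondria, had 30.5 and 30.1 CPM in 2C::GFP+/SA cells, 11.02 and 21.6 CPM in 2C::GFP+/SGC cells, 5.09 and 6.65 CPM in 2C::GFP+ cells and 0.663 and 0.411 CPM in mESC. It was near 0 in mESC and highest in both 2C::GFP+/SA libraries. Its log2 fold change was 2.39 ± 0.31 (adjusted p = 0.00014) for 2C::GFP+/SA against 2C::GFP+ and 3.29 ± 0.36 (adjusted p = 2.68e-05) for 2C::GFP+ against mESC. Against 2C::GFP+/SGC it missed the threshold in edgeR at an adjusted p of 0.0515. It passed in 9 of the other fits, with adjusted p of 0.00277 to 0.0491 and DESeq2 at 0.0108.

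Brdt, a bromodomain protein of spermatocytes and spermatids, had 2.47 and 4.39 CPM in 2C::GFP+/SA cells, 1.66 and 3.40 CPM in 2C::GFP+/SGC cells, 0.951 and 1.07 CPM in 2C::GFP+ cells and 0.284 and 0.513 CPM in mESC. Its treated groups overlapped and both lay above the untreated groups. For Brdt, the log2 fold change for 2C::GFP+/SA against 2C::GFP+ was 1.74 ± 0.53 (adjusted p = 0.0247). That call ended without either 2C::GFP+ library (log2 fold change 1.66 and 1.81), without 2C::GFP+/SA replicate 2 (1.33) and in both limma fits (adjusted p = 0.0792 and 0.103). Dpep3, a membrane dipeptidase of testis, had 2.93 and 2.77 CPM in 2C::GFP+/SA cells, 2.75 and 3.67 CPM in 2C::GFP+/SGC cells, 1.75 and 2.55 CPM in 2C::GFP+ cells and 0.204 and 0.667 CPM in mESC. It was higher in 2C::GFP+ than in mESC by a log2 fold change of 2.56 ± 0.57 (adjusted p = 0.00496), a call that ended without mESC replicate 1 (0.0829), and it was called in no comparison among the reporter groups.

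Of the other germ cell genes, Meioc and Stk31 were higher in 2C::GFP+/SA than in 2C::GFP+, and higher in 2C::GFP+ than in mESC. Meioc keeps the meiotic programme running together with the RNA helicase Ythdc2, and averaged 28.3 ± 2.63 CPM in 2C::GFP+/SA cells, 15.4 ± 0.0755 in 2C::GFP+ cells and 3.81 ± 1.72 in mESC (SD, n = 2 each). Ythdc2 itself was called in no comparison, and its 8 libraries lay between 26.8 and 37.6 CPM. Stk31, a germ cell protein with Tudor and kinase domains, averaged 32.6 ± 7.26 CPM in 2C::GFP+/SA cells, 19.4 ± 1.28 in 2C::GFP+ cells and 8.67 ± 1.82 in mESC. The 2C::GFP+/SA calls of both ended without 2C::GFP+ replicate 1 (log2 fold change 0.89 for Meioc and 0.85 for Stk31) or replicate 2 (0.88 and 0.70). The call of Meioc also ended in both limma fits (adjusted p = 0.0822 and 0.119). That of Stk31 also ended without 2C::GFP+/SA replicate 1 (log2 fold change 0.52) and with limma on log2(TPM + 0.1) (adjusted p = 0.0542).

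Prdm1 and Nanos3 act early, in primordial germ cells. Prdm1, the transcriptional repressor that specifies primordial germ cells, had 4.93 and 6.78 CPM in 2C::GFP+/SA cells, 14.0 and 15.7 CPM in 2C::GFP+/SGC cells, 18.7 and 18.1 CPM in 2C::GFP+ cells and 20.8 and 23.4 CPM in mESC. Both 2C::GFP+/SA libraries were below all others. It fell in 2C::GFP+/SA, with a log2 fold change of -1.68 ± 0.22 (adjusted p = 0.000128) against 2C::GFP+ and -1.37 ± 0.22 (adjusted p = 0.0012) against 2C::GFP+/SGC. Nanos3, an RNA-binding protein that keeps primordial germ cells alive, lay between 0.570 and 1.45 CPM in the 8 libraries. It was called in no comparison by edgeR, whereas limma called it lower in 2C::GFP+/SA than in mESC (adjusted p = 0.0216 on log2(TPM + 1) and 0.0234 on log2(TPM + 0.1)), and both 2C::GFP+/SA libraries lay below both mESC libraries. Tex101, a surface protein of male germ cells, had 2.16 and 2.16 CPM in 2C::GFP+/SA cells, 1.58 and 1.495 CPM in 2C::GFP+/SGC cells, 0.876 and 0.594 CPM in 2C::GFP+ cells and 0.0583 and 0 CPM in mESC. It was higher in 2C::GFP+ than in mESC (log2 fold change 3.97 ± 0.72, adjusted p = 0.00121), and the rise in 2C::GFP+/SA over 2C::GFP+ missed the threshold in edgeR (adjusted p = 0.0549). It passed in 8 of the other fits, with adjusted p of 0.017 to 0.047 and DESeq2 at 0.0338.

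**Figure D5:**
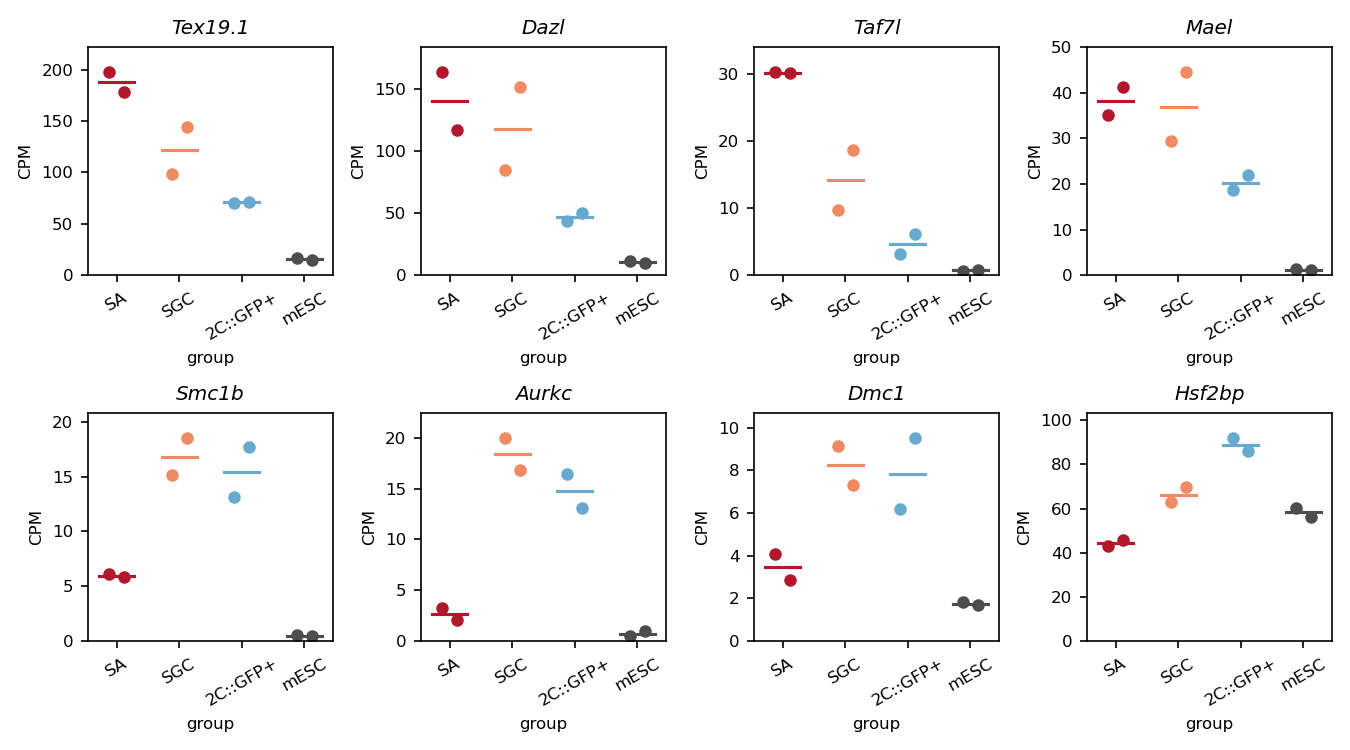
CPM of 8 members per library (points, 2 per group; lines are means; SA and SGC stand for 2C::GFP+/SA and 2C::GFP+/SGC). The upper genes have their highest means in 2C::GFP+/SA; the lower genes have their highest means in 2C::GFP+/SGC or 2C::GFP+ and lie at 2.65 to 44.4 CPM on average in 2C::GFP+/SA.

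The meiotic chromosome genes did not move as a block. Of 15 tested, 11 were higher and 2 lower in 2C::GFP+ than in mESC, against 15.2% and 9.12% of all tested genes. In 2C::GFP+/SA, 5 were higher and 4 lower than in 2C::GFP+, against 14.9% and 13.8% of all tested genes. Against 2C::GFP+/SGC, 1 was higher (6.67%, near the 7.92% of all tested genes) and 5 were lower (33.3%, against 8.18%). Of the 5 genes higher in 2C::GFP+/SA than in 2C::GFP+, 3 encode parts of the synaptonemal complex. Syce1, a protein of its central element, had 30.4 and 35.4 CPM in 2C::GFP+/SA cells, 21.6 and 24.6 CPM in 2C::GFP+/SGC cells, 16.7 and 13.9 CPM in 2C::GFP+ cells and 6.17 and 6.16 CPM in mESC. The groups did not overlap and were in 1 order. Its log2 fold change was 1.09 ± 0.19 (adjusted p = 0.000968) for 2C::GFP+/SA against 2C::GFP+ and 1.32 ± 0.20 (adjusted p = 0.000289) for 2C::GFP+ against mESC.

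Sycp2, a protein of the chromosome axis, had 6.05 and 4.62 CPM in 2C::GFP+/SA cells, 4.20 and 3.74 CPM in 2C::GFP+/SGC cells, 0.993 and 1.19 CPM in 2C::GFP+ cells and 0.233 and 0.308 CPM in mESC. No groups overlapped, and the rise for 2C::GFP+/SA against 2C::GFP+ was 2.33 ± 0.40 (adjusted p = 0.00083) on the log2 scale. The rise for 2C::GFP+ against mESC was 2.06 ± 0.45 (adjusted p = 0.00443). That call ended without mESC replicate 1 (log2 fold change 1.77) and in both limma fits (adjusted p = 0.238 and 0.0606). Sycp1, the transverse filament, averaged 25.9 ± 7.54 CPM in 2C::GFP+/SA cells, 8.96 ± 3.13 in 2C::GFP+ cells and 9.07 ± 0.920 in mESC (SD, n = 2 each). It rose in 2C::GFP+/SA against 2C::GFP+ by a log2 fold change of 1.55 ± 0.28 (adjusted p = 0.00118), while 2C::GFP+ and mESC overlapped. Sycp1 shares 15.6% of its 31-base words with other genes, mainly the pseudogene Sycp1-ps1.

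Sycp3, the other axis protein, averaged 6.78 ± 1.74 CPM in 2C::GFP+/SA cells, 6.30 ± 3.44 in 2C::GFP+ cells and 0.900 ± 0.542 in mESC, and was higher in 2C::GFP+ than in mESC (log2 fold change 2.96 ± 0.58, adjusted p = 0.00399). That call ended without mESC replicate 1 (adjusted p = 0.0596). Its value is uncertain, because Chpt1 on the opposite strand overlaps 52.2% of its exon bases and the strand setting of the counts is not given in the sources used here. Chpt1 had 7.70 to 12.7 CPM in the 8 libraries and was called in no comparison. Hormad1, which marks unsynapsed chromosome axes, had 19.8 and 31.9 CPM in 2C::GFP+/SA cells, 19.9 and 36.8 CPM in 2C::GFP+/SGC cells, 20.8 and 36.4 CPM in 2C::GFP+ cells and 3.68 and 1.44 CPM in mESC. The groups with the reporter overlapped and lay above mESC. It was higher in 2C::GFP+ than in mESC by a log2 fold change of 3.34 ± 0.59 (adjusted p = 0.00948) and shares 36.3% of its 31-base words, mainly with the gene model Gm15529.

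A second set of meiotic genes was high in reporter cells and low again under the full treatment. Smc1b, the meiosis-specific SMC subunit of cohesin, had 6.08 and 5.86 CPM in 2C::GFP+/SA cells, 15.1 and 18.5 CPM in 2C::GFP+/SGC cells, 13.2 and 17.7 CPM in 2C::GFP+ cells and 0.525 and 0.462 CPM in mESC. The 2C::GFP+/SGC and 2C::GFP+ libraries overlapped, and 2C::GFP+/SA lay between them and mESC. For Smc1b, the log2 fold change was 4.92 ± 0.31 (adjusted p = 1.8e-07) for 2C::GFP+ against mESC, -1.36 ± 0.25 (adjusted p = 0.00143) for 2C::GFP+/SA against 2C::GFP+ and -1.48 ± 0.25 (adjusted p = 0.00169) for 2C::GFP+/SA against 2C::GFP+/SGC. Aurkc, the Aurora kinase of meiotic divisions, had 3.22 and 2.08 CPM in 2C::GFP+/SA cells, 19.9 and 16.9 CPM in 2C::GFP+/SGC cells, 16.5 and 13.1 CPM in 2C::GFP+ cells and 0.481 and 0.975 CPM in mESC. Again 2C::GFP+/SA lay below both other reporter groups and above mESC. For Aurkc, the log2 fold change was 4.54 ± 0.37 (adjusted p = 1.72e-06) for 2C::GFP+ against mESC, -2.42 ± 0.33 (adjusted p = 0.000136) for 2C::GFP+/SA against 2C::GFP+ and -2.74 ± 0.33 (adjusted p = 0.000154) against 2C::GFP+/SGC. Aurkc shares 67.1% of its 31-base words with other genes, 45.3% with the gene model Gm12463, which had 1.11 and 0.231 CPM in 2C::GFP+/SA cells, against 5.04 and 3.51 CPM in 2C::GFP+ cells, so reads of the 2 cannot be told apart with certainty.

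Dmc1, the meiotic recombinase, had 4.09 and 2.85 CPM in 2C::GFP+/SA cells, 9.14 and 7.34 CPM in 2C::GFP+/SGC cells, 6.19 and 9.50 CPM in 2C::GFP+ cells and 1.81 and 1.69 CPM in mESC. It lay lower in 2C::GFP+/SA than in either other reporter group and above mESC. For Dmc1, the log2 fold change was 2.14 ± 0.34 (adjusted p = 0.000502) for 2C::GFP+ against mESC, -1.13 ± 0.33 (adjusted p = 0.0205) for 2C::GFP+/SA against 2C::GFP+ and -1.23 ± 0.33 (adjusted p = 0.0228) against 2C::GFP+/SGC. The call against 2C::GFP+ ended without 2C::GFP+ replicate 2 (adjusted p = 0.198) or 2C::GFP+/SA replicate 2 (0.112). The call against 2C::GFP+/SGC ended without 2C::GFP+/SA replicate 2 (0.102) or 2C::GFP+/SGC replicate 1 (0.168).

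Hsf2bp, a partner of BRCA2 in meiotic recombination and the meiotic gene with the highest TPM, had 43.0 and 45.9 CPM in 2C::GFP+/SA cells, 62.9 and 69.7 CPM in 2C::GFP+/SGC cells, 91.8 and 86.0 CPM in 2C::GFP+ cells and 60.3 and 56.4 CPM in mESC. Both 2C::GFP+/SA libraries were below all others, and both 2C::GFP+ libraries above. It was higher in 2C::GFP+ than in mESC by a log2 fold change of 0.61 ± 0.13 (adjusted p = 0.00415), and it fell in 2C::GFP+/SA, with a log2 fold change of -1.003 ± 0.13 (adjusted p = 0.000131) against 2C::GFP+ and -0.58 ± 0.13 (adjusted p = 0.0103) against 2C::GFP+/SGC. The last call ended without 2C::GFP+/SA replicate 1 (adjusted p = 0.0525) or 2C::GFP+/SGC replicate 2 (0.0726). Meiob, a single-strand DNA-binding protein of meiotic recombination, had 0.219 and 0 CPM in 2C::GFP+/SA cells, 1.25 and 3.13 CPM in 2C::GFP+/SGC cells, 0.501 and 1.19 CPM in 2C::GFP+ cells and 0 and 0.103 CPM in mESC. It had 80 counts in 2C::GFP+ against 2 in mESC, a ratio of 45.9 with a 95% counting interval of 12.3 to 385. The call for this pair ended without mESC replicate 1 (log2 fold change 2.9) or 2C::GFP+ replicate 2 (4.77), with DESeq2 (adjusted p = 0.109) and with limma on log2(TPM + 1) (0.0836). Its fall in 2C::GFP+/SA against 2C::GFP+/SGC (log2 fold change -3.71 ± 1.06, adjusted p = 0.034) was not called by DESeq2 (0.128). That call also ended without 2C::GFP+/SA replicate 1 (log2 fold change -10.14), either 2C::GFP+/SGC library (-4.27 and -2.97) or 2C::GFP+ replicate 1 (-3.68).

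Tex15, which is required for meiotic repair and for silencing of transposons in fetal male germ cells, moved the opposite way, with 32.5 and 41.2 CPM in 2C::GFP+/SA cells, 20.7 and 20.8 CPM in 2C::GFP+/SGC cells, 13.4 and 8.02 CPM in 2C::GFP+ cells and 22.8 and 29.9 CPM in mESC. It was lowest in both 2C::GFP+ libraries. For Tex15, the log2 fold change was -1.26 ± 0.24 (adjusted p = 0.0018) for 2C::GFP+ against mESC and 1.75 ± 0.24 (adjusted p = 0.000193) for 2C::GFP+/SA against 2C::GFP+. Against 2C::GFP+/SGC it was 0.82 ± 0.24 (adjusted p = 0.031), a call that ended without 2C::GFP+/SA replicate 2 (adjusted p = 0.0775) and without either 2C::GFP+/SGC library (0.151 and 0.0983). Both limma fits did not call Tex15 against 2C::GFP+/SGC (adjusted p = 0.193 and 0.223). Tex11, an X-linked gene needed for crossovers, averaged 26.7 ± 3.93 CPM in 2C::GFP+/SA cells, 11.6 ± 0.637 in 2C::GFP+ cells and 2.29 ± 1.04 in mESC (SD, n = 2 each). It was higher at both steps, and its call for 2C::GFP+/SA against 2C::GFP+ ended without 2C::GFP+ replicate 1 (0.0788).

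The kleisin and its cohesin partner stood apart from Smc1b. Stag3, a cohesin subunit of meiotic chromosomes, had 78.5 and 70.7 CPM in 2C::GFP+/SA cells, 87.5 and 92.0 CPM in 2C::GFP+/SGC cells, 63.6 and 90.3 CPM in 2C::GFP+ cells and 72.3 and 70.7 CPM in mESC. The 2C::GFP+ libraries spanned most of this range, while both 2C::GFP+/SGC libraries lay above both 2C::GFP+/SA and both mESC libraries. Stag3 was called in no comparison. Rec8, the meiotic kleisin, averaged 13.8 ± 1.62 CPM in 2C::GFP+/SA cells, 14.7 ± 0.115 in 2C::GFP+/SGC cells, 9.98 ± 0.838 in 2C::GFP+ cells and 28.9 ± 7.78 in mESC (SD, n = 2 each). Relative to mESC, Rec8 was lower in 2C::GFP+/SA, with a log2 fold change of -1.07 ± 0.22 (adjusted p = 0.00145) and lower in 2C::GFP+ as well, with -1.54 ± 0.23 (adjusted p = 0.000242). Mei1, needed for the formation of meiotic double-strand breaks, stayed at or below 1.10 CPM in every library and was higher in 2C::GFP+ than in mESC (log2 fold change 4.02 ± 0.95, adjusted p = 0.00709). That call ended without mESC replicate 1 (log2 fold change 7.61) and in both limma fits (adjusted p = 0.176 and 0.0529).

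Of 11 piRNA genes, 8 were higher and 1 lower in 2C::GFP+/SA than in 2C::GFP+, against 14.9% and 13.8% of all tested genes. In 2C::GFP+, 7 were higher and 2 lower than in mESC, against 15.2% and 9.12%. Without 2C::GFP+ replicate 1, the higher 2C::GFP+/SA calls of Mael, Asz1, Tdrd1, Piwil2 and Fkbp6 ended, in a fit that also called fewer genes in all. Against 2C::GFP+/SGC, 0 were higher and 1 lower (edgeR, with 3 at an unadjusted p under 0.05). That 1 is 9.09%, near the 8.18% of all tested genes. Mael, a protein of the piRNA granules of germ cells, had 35.0 and 41.2 CPM in 2C::GFP+/SA cells, 29.3 and 44.5 CPM in 2C::GFP+/SGC cells, 18.6 and 21.9 CPM in 2C::GFP+ cells and 1.25 and 1.03 CPM in mESC. The treated groups overlapped, 2C::GFP+ lay below them, and mESC was lowest. For Mael, the log2 fold change was 4.09 ± 0.26 (adjusted p = 1.69e-07) for 2C::GFP+ against mESC and 0.92 ± 0.21 (adjusted p = 0.00579) for 2C::GFP+/SA against 2C::GFP+. The call against 2C::GFP+ ended without 2C::GFP+ replicate 1 (adjusted p = 0.0751).

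Ddx4, the RNA helicase known as Vasa, averaged 26.6 ± 1.23 CPM in 2C::GFP+/SA cells, 19.25 ± 0.743 in 2C::GFP+/SGC cells, 10.7 ± 0.561 in 2C::GFP+ cells and 5.20 ± 0.194 in mESC (SD, n = 2 each). No groups overlapped. For Ddx4, the log2 fold change was 1.32 ± 0.20 (adjusted p = 0.000289) for 2C::GFP+/SA against 2C::GFP+ and 1.04 ± 0.20 (adjusted p = 0.0018) for 2C::GFP+ against mESC. Both calls held in all the other fits.

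Fkbp6, an immunophilin that helps load PIWI proteins, had 42.6 and 38.8 CPM in 2C::GFP+/SA cells, 21.9 and 35.2 CPM in 2C::GFP+/SGC cells, 17.2 and 21.9 CPM in 2C::GFP+ cells and 10.2 and 5.13 CPM in mESC. Both 2C::GFP+/SA libraries lay above the rest, and 2C::GFP+/SGC and 2C::GFP+ overlapped. In 2C::GFP+ against mESC, Fkbp6 was higher by 1.30 ± 0.32 (adjusted p = 0.0159) on the log2 scale, a call that ended without 2C::GFP+ replicate 2 (adjusted p = 0.101). The log2 fold change in 2C::GFP+/SA against 2C::GFP+ was 1.07 ± 0.32 (adjusted p = 0.0307). This call ended without any 1 of the 4 libraries compared. The log2 fold changes were 1.02 and 1.16 without 2C::GFP+/SA replicates 1 and 2, and 0.91 and 1.24 without 2C::GFP+ replicates 1 and 2. The call also ended with limma on log2(TPM + 0.1) (adjusted p = 0.0634) and in edgeR with a replicate block (0.0673). Rnf17, a Tudor-domain protein of germ cell granules, had 107 and 98.3 CPM in 2C::GFP+/SA cells, 87.2 and 92.4 CPM in 2C::GFP+/SGC cells, 90.9 and 99.0 CPM in 2C::GFP+ cells and 36.6 and 36.6 CPM in mESC. The reporter groups overlapped far above mESC. For 2C::GFP+ against mESC the log2 fold change of Rnf17 was 1.37 ± 0.13 (adjusted p = 5.25e-06).

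Piwil2, the PIWI protein that amplifies piRNAs in mouse, had 29.8 and 31.2 CPM in 2C::GFP+/SA cells, 26.1 and 24.3 CPM in 2C::GFP+/SGC cells, 18.4 and 20.9 CPM in 2C::GFP+ cells and 5.78 and 5.24 CPM in mESC. The groups did not overlap, and its log2 fold change was 1.82 ± 0.19 (adjusted p = 1.17e-05) for 2C::GFP+ against mESC and 0.64 ± 0.18 (adjusted p = 0.0169) for 2C::GFP+/SA against 2C::GFP+. The second call ended without 2C::GFP+ replicate 1 (log2 fold change 0.56) and in both limma fits (adjusted p = 0.103 and 0.111). Mov10l1, the helicase that feeds precursor transcripts into piRNA production, had 16.9 and 20.2 CPM in 2C::GFP+/SA cells, 22.97 and 25.3 CPM in 2C::GFP+/SGC cells, 13.2 and 15.4 CPM in 2C::GFP+ cells and 2.30 and 2.41 CPM in mESC. It was highest in both 2C::GFP+/SGC libraries. It was higher in 2C::GFP+ than in mESC by a log2 fold change of 2.60 ± 0.23 (adjusted p = 2.83e-06). Among the reporter groups edgeR did not call it, whereas DESeq2 called it higher in 2C::GFP+/SGC than in 2C::GFP+ (adjusted p = 0.0392).

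Tdrd9, Asz1, Tdrd5 and Tdrd1 had the largest fold changes among the piRNA genes under the full treatment. Asz1, an anchor of the pathway at mitochondria, had 5.03 and 6.62 CPM in 2C::GFP+/SA cells, 1.87 and 3.87 CPM in 2C::GFP+/SGC cells, 0.784 and 1.07 CPM in 2C::GFP+ cells and 0.240 and 0 CPM in mESC. Its call for 2C::GFP+ against mESC (log2 fold change 2.33 ± 0.67, adjusted p = 0.0228) ended without 2C::GFP+ replicate 1 (log2 fold change 2.60) or replicate 2 (2.12), and with limma on log2(TPM + 1) (adjusted p = 0.142). The log2 fold change for 2C::GFP+/SA against 2C::GFP+ was 2.69 ± 0.60 (adjusted p = 0.00511), a call that ended without 2C::GFP+ replicate 1 (adjusted p = 0.0829). Tdrd9, an RNA helicase with a Tudor domain, had 4.68 and 3.39 CPM in 2C::GFP+/SA cells, 1.69 and 2.11 CPM in 2C::GFP+/SGC cells, 0.651 and 0 CPM in 2C::GFP+ cells and 0.772 and 1.13 CPM in mESC. Its 2C::GFP+/SA libraries were highest, and its 2C::GFP+ and mESC libraries were all at or below 1.13 CPM. Against 2C::GFP+, the log2 fold change of Tdrd9 was 3.24 ± 0.73 (adjusted p = 0.00625). Tdrd1, a Tudor-domain scaffold of PIWI proteins, averaged 3.49 ± 0.0360 CPM in 2C::GFP+/SA cells and 0.770 ± 0.0865 in 2C::GFP+ cells (SD, n = 2 each), with a log2 fold change of 2.20 ± 0.55 (adjusted p = 0.00866), a call that ended without 2C::GFP+ replicate 1 (0.0907).

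Both remaining Tudor-domain genes were lower in untreated reporter cells than in mESC. Tdrd5, which is needed for the assembly of piRNA granules, had 4.68 and 6.93 CPM in 2C::GFP+/SA cells, 3.01 and 2.58 CPM in 2C::GFP+/SGC cells, 1.23 and 0.950 CPM in 2C::GFP+ cells and 2.85 and 4.31 CPM in mESC. It was lowest in 2C::GFP+, and the 2C::GFP+/SA libraries lay above the mESC ones. For Tdrd5, the log2 fold change was -1.66 ± 0.40 (adjusted p = 0.00777) for 2C::GFP+ against mESC and 2.36 ± 0.40 (adjusted p = 0.000806) for 2C::GFP+/SA against 2C::GFP+. The first call ended without mESC replicate 2 (log2 fold change -1.36) and in both limma fits (adjusted p = 0.111 and 0.0649). Tdrd12, a Tudor-domain partner of the secondary piRNA pathway, had 21.3 and 15.6 CPM in 2C::GFP+/SA cells, 38.8 and 32.8 CPM in 2C::GFP+/SGC cells, 37.5 and 28.2 CPM in 2C::GFP+ cells and 47.3 and 50.2 CPM in mESC. Both 2C::GFP+/SA libraries were lowest. Its log2 fold change for 2C::GFP+ against mESC was -0.56 ± 0.19 (adjusted p = 0.0449). That call ended without either mESC library (log2 fold change -0.63 and -0.53), 2C::GFP+ replicate 2 (-0.41) or replicate 1 of 2C::GFP+/SGC (-0.57). The same call ended in both limma fits (adjusted p = 0.0756 and 0.06985) and in edgeR with libraries thinned to the shallowest (0.0631). Tdrd12 fell in 2C::GFP+/SA, with a log2 fold change of -0.82 ± 0.19 (adjusted p = 0.00624) against 2C::GFP+ and -0.94 ± 0.19 (adjusted p = 0.00519) against 2C::GFP+/SGC. The first of these ended without 2C::GFP+ replicate 1 (0.106) and the second without 2C::GFP+/SGC replicate 1 (0.0727).

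Over both steps, 14 genes were higher in 2C::GFP+ than in mESC and higher again in 2C::GFP+/SA than in 2C::GFP+: Asz1, Dazl, Ddx4, Fkbp6, Mael, Meioc, Piwil2, Slc25a31, Stk31, Syce1, Sycp2, Taf7l, Tex11 and Tex19.1. Another 4 were higher in 2C::GFP+ and lower in 2C::GFP+/SA (Aurkc, Dmc1, Hsf2bp and Smc1b), and 2 the reverse (Tdrd5 and Tex15). These steps share the 2C::GFP+ libraries, so they are not independent. The share of all tested genes with each such pair of calls, here and in the next comparison, was not counted. The comparisons of 2C::GFP+ with mESC and of 2C::GFP+/SA with 2C::GFP+/SGC share none: 5 genes were higher in the first and lower in the second (Aurkc, Dmc1, Hsf2bp, Meiob and Smc1b), and 2 higher in both (Taf7l and Tex19.1). Neither Taf7l nor Tex19.1 was called by limma in the second.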

How the data were processed

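Polyadenylated RNA of 8 libraries was sequenced. The authors deposited whole-number counts per gene without normalization and TPM values, which are those counts per gene length, rescaled per library. The submitters' processing notes list, for quality control and trimming, FastQC 0.11.9 and Trim Galore 0.6.5. For alignment and counting they list STAR 2.7.4a and featureCounts 2.0.0, with mm10 and GRCm38 as builds. How strand and multiply mapped reads were handled is not given in the sources used here. Columns were matched to groups by name, and those of 2C::GFP+ by elimination.

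Counts were scaled by TMM (factors 0.942 to 1.06), filtered with filterByExpr (20608 genes) and fitted by robust quasi-likelihood in edgeR 4.0.16 (R 4.3.3) with 1 term per group over all 8 libraries. F tests were two-sided, adjusted by Benjamini-Hochberg over all tested genes, and called at an adjusted p under 0.05. Fold changes are log2 with standard errors (SE), CPM values follow TMM, and the biological coefficient of variation was 20.6%. DESeq2 1.42.0 and limma 3.58.1 on log2(TPM + 1) and log2(TPM + 0.1) were alternatives, as were RLE scaling, other filters, thinning to the shallowest library, a replicate block and leaving out each library. The fitting steps were tested on simulated data. Shared sequence was measured as 31-base words of GENCODE M21 transcripts, and promoters came from RefSeq. The members, lists, role groups and tests were chosen with earlier results of these data known. By a fixed rule, values per library are given for the 3 members of each role with the highest mean TPM, for up to 3 called members with the largest fold change in 2C::GFP+/SA against 2C::GFP+ and in 2C::GFP+ against mESC (where the higher group averaged at least 1 CPM), and for members called in opposite directions; Prdm1, Tdrd12 and Tex101 were added after their values were seen. For other meiosis, other piRNA, repressor and primordial germ cell genes, up to 3 called genes are named. These had the smallest adjusted p in 2C::GFP+/SA against 2C::GFP+. Dnmt3a, the spermatid genes and the cell type markers that are named were not picked by this rule. Having 2 libraries a group limits the precision of every SD.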

Additional observations from a re-analysis of the deposited data

How the results depend on the processing

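The 195 tests of single members (39 genes in 5 comparisons) were repeated with other tools, scalings, filters, a replicate block and each library left out. None of the 100 calls changed direction. Of them, 66 held in every fit and 34 ended in at least 1, 33 of these when a library was left out. The sign turned in 50 fits of 21 tests, none of them called and with an unadjusted p of at least 0.065 in the first fit.

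For 2C::GFP+/SGC against 2C::GFP+, where edgeR called 0 members and 0 genes, DESeq2 called 10 members and 274 genes, no filter on low counts 10 and 499, and the 4 compared libraries alone 5 and 326. With the replicate number as a block there were 6 members and 284 genes; the numbers share only a label, since the correlation of same-numbered deviations was 0.041 to 0.142. Limma on log2(TPM + 0.1) called 1 gene. A fit chosen after seeing the data that dropped the whole 2C::GFP+/SA group called 0 members and 79 genes. The cause of these differences was not tested. Leaving out 1 library gave 0 to 7 members and 0 to 431 genes.

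For 2C::GFP+ against mESC, limma on log2(TPM + 1) called 2924 genes in place of 5016, and leaving out 1 library gave 25 to 31 members and 2872 to 5869 genes. For 2C::GFP+/SA against 2C::GFP+ leaving out 1 library gave 15 to 27 members and 2890 to 5861 genes (26 and 5910 with all). For 2C::GFP+/SA against 2C::GFP+/SGC it gave 4 to 11 members and 1207 to 3324 genes (10 and 3319 with all), and the 4 compared libraries alone gave 2210 genes. For 2C::GFP+/SA against mESC it gave 30 to 33 members and 6630 to 9648 genes (33 and 9288 with all). The block changed the call of a called member only for Fkbp6, in 2C::GFP+/SA against 2C::GFP+ (adjusted p = 0.0673). With 2 libraries a group, replicate 2 being the shallower, low genes such as Meiob, Mei1 and Tdrd9 rest on few counts in replicate 2. There 3 counts stand for 0.153 to 0.244 CPM, against 0.0206 to 0.0310 CPM in replicate 1, counting error only.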

Other observations

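Other genes of the same pathways were counted from lists fixed for this work. Of 20 other meiosis genes tested, 8 were higher and 0 lower in 2C::GFP+ than in mESC, against 15.2% and 9.12% of all tested genes. In 2C::GFP+/SA, 0 were higher and 5 lower than in 2C::GFP+, against 14.9% and 13.8%. Against 2C::GFP+/SGC, 0 were higher and 6 lower, beside 7.92% and 8.18% of all tested genes. Group means were highest in 2C::GFP+/SGC for 13 of the 20, against 14.4% of all tested genes. Stra8, the retinoic acid-induced switch into meiosis, had 20.0 and 14.9 CPM in 2C::GFP+/SA cells, 80.9 and 132 CPM in 2C::GFP+/SGC cells, 47.2 and 79.4 CPM in 2C::GFP+ cells and 0.138 and 0.205 CPM in mESC. It was near 0 in mESC and, in 2C::GFP+/SA, below both other reporter groups, with a log2 fold change of -1.83 ± 0.32 (adjusted p = 0.00382) against 2C::GFP+ and -2.59 ± 0.32 (adjusted p = 0.00168) against 2C::GFP+/SGC. Syce2, a central element protein like Syce1, fell in 2C::GFP+/SA, with a log2 fold change against 2C::GFP+ of -1.18 ± 0.15 (adjusted p = 9.01e-05), and so did Mnd1, a cofactor of Dmc1, with -0.81 ± 0.19 (adjusted p = 0.00711). Of 13 other piRNA genes, 2 were higher and 1 lower in 2C::GFP+/SA than in 2C::GFP+ (15.4% and 7.69%), near the 14.9% and 13.8% of all tested genes. Mybl1, the transcription factor that switches on pachytene piRNA genes in mouse, rose by a log2 fold change of 1.22 ± 0.19 (adjusted p = 0.000368), and Tdrkh, a mitochondrial Tudor-domain protein, by 1.05 ± 0.29 (adjusted p = 0.0142), while Pld6, the mitochondrial nuclease of piRNA production, fell, with a log2 fold change of -1.52 ± 0.29 (adjusted p = 0.00169).

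Of 17 genes for repressors of germline genes, 0 were higher and 7 lower in 2C::GFP+/SA than in 2C::GFP+, against 14.9% higher and 13.8% lower over all tested genes. Ehmt2, a histone H3 lysine 9 methyltransferase, had 160.1 and 145 CPM in 2C::GFP+/SA cells, 219 and 176 CPM in 2C::GFP+/SGC cells, 295 and 246 CPM in 2C::GFP+ cells and 209 and 188 CPM in mESC, with a log2 fold change of -0.83 ± 0.14 (adjusted p = 0.000942) against 2C::GFP+. Pcgf6, the Polycomb subunit of the complex with MGA and MAX, had 52.1 and 44.5 CPM in 2C::GFP+/SA cells, 79.0 and 79.1 CPM in 2C::GFP+/SGC cells, 82.5 and 72.8 CPM in 2C::GFP+ cells and 83.3 and 77.3 CPM in mESC, with -0.68 ± 0.14 (adjusted p = 0.00243). Uhrf1, which brings the maintenance DNA methyltransferase to replicated DNA, had 639.9 and 519 CPM in 2C::GFP+/SA cells, 792 and 758 CPM in 2C::GFP+/SGC cells, 939 and 823 CPM in 2C::GFP+ cells and 942 and 757 CPM in mESC, with -0.60 ± 0.15 (adjusted p = 0.00798). Against 2C::GFP+/SGC, 1 of the 17 was lower, Pcgf6 (5.88%, beside 8.18% of all tested genes). In 2C::GFP+ against mESC, where most members were also higher, 3 of the 17 were higher and 1 lower (15.2% and 9.12% of all tested genes). Dnmt3a, a de novo DNA methyltransferase chosen for mention after its values were seen, had 224 and 293 CPM in 2C::GFP+/SA cells, 278 and 297 CPM in 2C::GFP+/SGC cells, 332 and 259 CPM in 2C::GFP+ cells and 47.9 and 66.6 CPM in mESC. These levels are given beside those of the methylation-gated genes, and the part of the repressors in their rise was not tested. Of 7 primordial germ cell regulators tested outside the members, 1 was higher and 1 lower in 2C::GFP+/SA than in 2C::GFP+ (14.3% each), near the 14.9% and 13.8% of all tested genes. Dppa2, which acts with Dppa4 on chromatin in early embryos and ESCs, rose by a log2 fold change of 1.22 ± 0.15 (adjusted p = 6.56e-05). Prdm14, a repressor needed to specify primordial germ cells, fell, with a log2 fold change of -0.66 ± 0.17 (adjusted p = 0.0121). The adjusted p-values are edgeR's, and these genes outside the members were not refitted under the alternatives.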
